A study of Homo sapiens with 6 samples.

Results

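The 35 genes described here encode the glucose transporters, the enzymes of glycolysis without pyruvate kinase, the enzymes and transporters that handle lactate, enzymes of the pentose phosphate branch and the phosphoglucomutases. They were chosen by gene symbol from a list of pathway genes and not by a threshold on any measured value, although earlier results of these data were known when the list was made, and all 35 had a row among the 29483 genes of the deposited table. Expression was measured by RNA sequencing of HK-2 cells, an immortalized epithelial line from the human kidney proximal tubule, in 3 replicates of a control group and 3 replicates of a case group. All 6 samples were kept in 25 mM D-glucose (HG) for 7 days, so that the control group was hyperglycemic too and no normal-glucose group was compared here. To the case group 10 μM TEPP-46 was then added, a small molecule that activates the pyruvate kinase isoform PKM2, for 1 further day in the same medium. The values were FPKM, read numbers corrected for the length of each gene and for library depth, and whole reads per gene could be recovered from them. Control replicates 1, 2, and 3 held 18591215, 17880479, and 17336821 recovered reads, and the case replicates held 16675862, 16011249, and 15329727. The labels only number the replicates, and the paper describes them as independent and separately treated, so that the adjusted p-values measure the spread between such replicates of one cell line.

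Glycolysis splits glucose into pyruvate in the cytosol. Its early steps spend ATP and are set mainly by hexokinase and phosphofructokinase, the latter under the control of fructose 2,6-bisphosphate, which the bifunctional PFKFB enzymes make and remove. Its late steps return ATP, and lactate dehydrogenase turns pyruvate into lactate and back, while the pentose phosphate branch leaves the pathway at glucose 6-phosphate to make NADPH and ribose. Proximal tubule cells in the kidney live largely on oxidation and make glucose as well as use it, whereas cultured cell lines are often strongly glycolytic. PKM2 catalyses the last step, so that the genes here lie upstream, beside and downstream of the enzyme that TEPP-46 binds.

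The label of the cells was checked against marker genes. All 4 epithelial markers were present, led by the keratin *KRT8* with a mean of 308 FPKM. Of the proximal tubule markers, the endocytic receptors *LRP2* and *CUBN* and the phosphate transporter *SLC34A1* were at or near 0 in all libraries. The fibroblast markers summed to at most 0.355 FPKM, the immune markers to at most 0.0297, and the endothelial markers to at most 0.065 in any library. Values from bulk RNA do not tell fewer cells of a kind from less RNA per cell.

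The case replicates were unlike each other. On the first principal component of all tested genes, which held 37.2% of the variance, the control replicates lay between -27.8 and -22.9, case replicates 1 and 3 at 30.5 and 34.4, and case replicate 2 at 9.54. On the second, with 24.3% of the variance, case replicate 1 lay at 36.8, case replicates 2 and 3 at -27.2 and -19.3, and the controls between -6.33 and 10.2. Case replicate 2 was thus nearest to the controls on the first component, and case replicate 1 stood apart on the second. The case group was also the more variable, with a median SD across genes of 0.19 on the log2 scale against 0.09 in the control group. The calls are therefore also given below without each of the replicates.

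TEPP-46 was accompanied by small changes in both directions. Genes with a mean of at least 0.5 FPKM were tested with limma on log2 values after scaling the libraries by the median of ratios, and a gene with a Benjamini-Hochberg adjusted p of at most 0.05 was called differentially expressed (DE). Of the 35 genes, 33 passed the minimum, and the glucose transporter *SLC2A3* and the aldolase *ALDOC* did not. *LDHA*, *LDHB*, and *TALDO1* were upregulated in the case group, *PFKM*, *PFKFB2*, and *PFKFB4* were downregulated, and 27 genes were not DE. The 6 DE genes made 18.2% of the 33 tested, where 13.2% of all 13599 tested genes were DE, 7.34% upregulated and 5.84% downregulated. The share was therefore close to that of the whole transcriptome. None of the 6 changed by more than 0.57 on the log2 scale. At an unadjusted p under 0.05 there were 15 of the 33 genes, and 33.1% of all tested genes. The scaled values of the groups did not overlap for 16 genes, 11 higher and 5 lower in the case group, which was 48.5% of the 33 against 39.9% of all tested genes, 19.5% higher and 20.4% lower. The median log2 fold change was 0.03 over the 33 genes and -0.00167 over all tested genes.

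**Figure D1:**
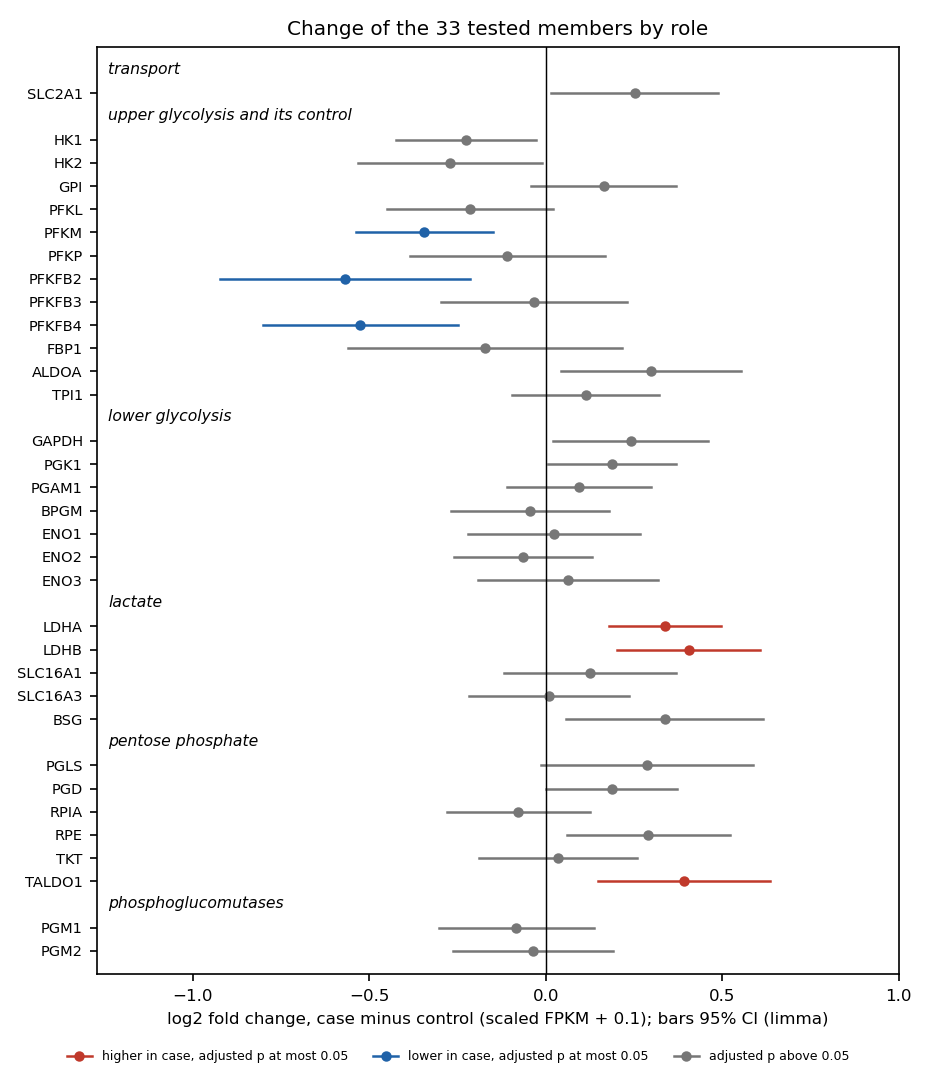
Log2 fold change (case minus control, scaled FPKM + 0.1) of the 33 tested genes, ordered by role, with the 95% confidence interval of the limma fit from 3 control and 3 case replicates. The 3 genes drawn in blue (*PFKM*, *PFKFB2*, and *PFKFB4*, between -0.57 and -0.34) all belong to upper glycolysis and its control, and the 3 in red (*LDHA*, *LDHB*, and *TALDO1*, between 0.34 and 0.40) to lactate handling and the pentose phosphate branch.

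Of the 2 glucose transporter genes in the list, 1 passed the minimum. *SLC2A1*, which encodes GLUT1, the basal glucose carrier of most cells, had 42.6, 41.9, and 44.1 FPKM in control replicates 1, 2, and 3 and 54.3, 46.0, and 45.2 FPKM in case replicates 1, 2, and 3. The groups did not overlap, but the case group was pulled up by replicate 1 and the other case replicates lay just above the controls. The log2 fold change was 0.25 (SE 0.10, adjusted p = 0.133). *SLC2A3*, the gene of the high-affinity carrier GLUT3, held 1 to 5 reads per library and was listed between 0.0101 and 0.0486 FPKM in all 6.

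Among the enzymes that commit glucose to glycolysis, the phosphofructokinase subunit *PFKM* was downregulated. Hexokinase and phosphofructokinase phosphorylate the sugar at its first and its committed step. *PFKM* (chromosome 12, 48105139 to 48146404, GRCh38), named for muscle but expressed widely, had 15.8, 16.6, and 14.5 FPKM in control replicates 1, 2, and 3 and 11.1, 12.5, and 11.4 FPKM in case replicates 1, 2, and 3. Every case replicate was below every control, and the 3 case values were close to each other. This gave a log2 fold change of -0.34 (SE 0.08, 95% CI -0.54 to -0.15, adjusted p = 0.0374), but with a correction for gene length, chosen after seeing the data, it was -0.22 and not DE (adjusted p = 0.106). The gene rested on 1274 to 2165 reads per library, and 516 bases of its exons are shared with *SENP1* on the opposite strand, which had 5.21 FPKM and a log2 fold change of -0.11 (adjusted p = 0.62).

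The other phosphofructokinase genes and the hexokinases were not DE. *PFKL*, the liver-type subunit, had 30.9 ± 0.79 FPKM in the control and 25.3 ± 2.45 FPKM in the case group (SD, n = 3), with a log2 fold change of -0.21 (adjusted p = 0.181). *PFKP*, the platelet-type subunit and the most abundant of the family, had 120 ± 3.47 and 106 ± 15.4 FPKM and a log2 fold change of -0.11 (adjusted p = 0.561). *PFKP* held 72.0% ± 1.22 (control) and 74.0% ± 1.76 (case) of the summed FPKM of the 3 subunits, and *PFKM* 9.41% ± 0.755 and 8.24% ± 1.19 (SD, n = 3). The ratio of *PFKM* to *PFKL* overlapped between the groups, with means of 0.505 and 0.464. *HK1*, the housekeeping hexokinase, held 92.5% of the hexokinase FPKM in controls and 92.7% in case replicates, and had a log2 fold change of -0.23 (SE 0.09, adjusted p = 0.113). *HK2*, the inducible hexokinase of glycolytic cells and not to be confused with the HK-2 line, had 3.82, 4.2, and 3.75 FPKM in control replicates 1, 2, and 3 and 2.85, 3.56, and 2.82 FPKM in case replicates 1, 2, and 3. The case values were all below the controls, with replicate 2 the nearest to them, and the log2 fold change was -0.27 (SE 0.11, adjusted p = 0.138).

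The largest log2 fold changes among the 12 tested genes of upper glycolysis belonged to *PFKFB2* and *PFKFB4*, bifunctional enzymes that set fructose 2,6-bisphosphate, the main activator of phosphofructokinase. *PFKFB2* (chromosome 1, 207034366 to 207081024), the heart-type enzyme, had 4.43, 4.41, and 4.42 FPKM in control replicates 1, 2, and 3 and 2.15, 3.59, and 2.80 FPKM in case replicates 1, 2, and 3. The controls were almost equal, and all case replicates were lower but scattered, with replicate 2 the nearest to the controls. Its log2 fold change was -0.57 (SE 0.15, 95% CI -0.92 to -0.22, adjusted p = 0.048). *PFKFB2* was called in 17 of 27 alternative settings. The call was lost, among others, with the gene length correction (-0.35, adjusted p = 0.083) and without case replicate 1 (-0.41, adjusted p = 0.052). It was also lost with no filter on low values (adjusted p = 0.123) and without the intensity trend (adjusted p = 0.078). In limma the same held without case replicate 3 or any 1 control replicate (adjusted p = 0.133 to 0.149). *PFKFB4* (chromosome 3, 48517684 to 48562015), first known from testis and induced by hypoxia in many lines, had 2.39, 2.34, and 2.75 FPKM in control replicates 1, 2, and 3 and 1.57, 1.68, and 1.58 FPKM in case replicates 1, 2, and 3. Here the 3 case replicates, replicate 2 included, were nearly equal and all below the controls. In the limma fit the log2 fold change was -0.52 (SE 0.12, 95% CI -0.80 to -0.25, adjusted p = 0.0309), on 148 to 292 reads per library. *PFKFB4* was called in 18 of the 27 alternative settings. The call was lost with the replicate number as a block (adjusted p = 0.0555) and with no filter on low values (adjusted p = 0.0769). In limma it was also lost without case replicate 3 or any 1 control replicate (adjusted p = 0.0931 to 0.128). Its exons share 298 bases with *UCN2* on the same strand, whose identifier had no row in the deposited values. *PFKFB3*, the isoform with the strongest kinase activity and the most abundant of the 3, had 14.4, 14.3, and 13.9 FPKM in control replicates 1, 2, and 3 and 14.4, 14.2, and 11.2 FPKM in case replicates 1, 2, and 3. The groups overlapped, and the log2 fold change was -0.03 (SE 0.11, 95% CI -0.30 to 0.23, adjusted p = 0.869).

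Within this family *PFKFB3* held 67.8%, 68.0%, and 65.9% of the summed FPKM of the 3 isoforms in control replicates 1, 2, and 3 and 79.4%, 72.9%, and 71.8% in case replicates 1, 2, and 3, and the groups did not overlap. The ratio of *PFKFB4* to *PFKFB3*, which does not depend on the scaling of the libraries, had means of 0.176 ± 0.0195 in the controls and 0.123 ± 0.0166 with TEPP-46 (SD, n = 3). It was the only 1 of 9 ratios between related genes whose groups did not overlap, and its two-sided exact permutation p was 0.1, the smallest that 3 against 3 samples allow (0.72 after adjustment over the 9 ratios). *PFKFB2* has 315 exonic bases in common with *YOD1* on the opposite strand, which had 3.21 FPKM and a log2 fold change of -0.21 (adjusted p = 0.235).

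The promoter stretches of the genes whose results carry this account are printed for 3 of them, since many glycolytic genes are textbook targets of the hypoxia-inducible factors, whose response element has ACGTG or GCGTG at its core. The 250 bases before each RefSeq transcription start (GRCh38.p14) were searched on both strands, and capitals mark the matches. *PFKFB4*, on the minus strand at chr3:48556804-48557053, had 1 match to GCGTG and none to ACGTG.
PFKFB4: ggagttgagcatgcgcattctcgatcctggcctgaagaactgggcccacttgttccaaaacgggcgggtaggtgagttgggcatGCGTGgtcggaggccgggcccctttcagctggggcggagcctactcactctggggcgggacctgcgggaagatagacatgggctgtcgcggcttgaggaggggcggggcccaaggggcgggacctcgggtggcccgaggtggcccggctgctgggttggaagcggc

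The rest of upper glycolysis was not DE. *GPI*, which isomerizes glucose 6-phosphate, had a log2 fold change of 0.16 (adjusted p = 0.234). *ALDOA*, the main aldolase, had 528 ± 10.1 FPKM in the control and 618 ± 67.8 FPKM in the case group (SD, n = 3), without overlap, and a log2 fold change of 0.30 (SE 0.11, adjusted p = 0.106). It held over 99.9% of the aldolase FPKM in every library, and *ALDOC* held 3 to 16 reads. *TPI1*, the triose phosphate isomerase, had 508 ± 22.6 and 521 ± 27.7 FPKM (adjusted p = 0.415), and its pseudogene *TPI1P1* was listed at 30.3 FPKM, so that some reads may have been divided between them. *FBP1*, which runs the phosphofructokinase step backwards in gluconeogenesis and is a marker of glucose-producing kidney cells, had 9.10, 7.22, and 7.83 FPKM in control replicates 1, 2, and 3 and 7.14, 5.34, and 8.0 FPKM in case replicates 1, 2, and 3. The groups overlapped, and the log2 fold change was -0.17 (SE 0.17, 95% CI -0.56 to 0.22, adjusted p = 0.512). Of the 12 tested genes of upper glycolysis, 0 were upregulated in limma or voom and 3 were downregulated (25.0%, against 5.84% of all tested genes), and their median log2 fold change was -0.19. At an unadjusted p under 0.05, 1 was higher and 5 were lower, against 33.1% of all tested genes in either direction. The 3 downward calls became 1 with the gene length correction, 5 with quantile normalization, and 6 with TPM. Of all tested genes, 6.58% were downregulated with quantile normalization and 17.6% with TPM. The cause of the rise with TPM was not tested.

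None of the 7 genes of lower glycolysis was DE in limma or in the voom fit described below. An unadjusted p under 0.05 was found for 2 of them, *GAPDH* and *PGK1*, and for 33.1% of all tested genes. *GAPDH*, which oxidizes glyceraldehyde 3-phosphate and is often used as a reference gene, had 1195, 1169.9, and 1106 FPKM in control replicates 1, 2, and 3 and 1383, 1224, and 1285 FPKM in case replicates 1, 2, and 3. All case replicates were above the controls, replicate 2 only just. The log2 fold change was 0.24 (SE 0.10, 95% CI 0.02 to 0.46, adjusted p = 0.124). *ENO1*, the ubiquitous enolase and the most abundant of the 35 genes, had 1657, 1616, and 1539 FPKM in control replicates 1, 2, and 3 and 1687, 1417, and 1540.0 FPKM in case replicates 1, 2, and 3. The groups overlapped, and the log2 fold change was 0.02 (SE 0.11, adjusted p = 0.902). The ATP-producing kinase *PGK1* was at 0.19 (adjusted p = 0.14), the mutase *PGAM1* at 0.09 (adjusted p = 0.493) and *BPGM*, which makes 2,3-bisphosphoglycerate, at -0.05 (adjusted p = 0.779). The neuronal enolase *ENO2* and the muscle enolase *ENO3* together held under 1% of the enolase FPKM. *ENO3* shares 111 exonic bases with *PFN1* on the opposite strand, which had 542 FPKM against 2.17 for *ENO3*. Whether the counting used strand is not given in the sources used here, so that the *ENO3* value is uncertain.

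The lactate dehydrogenase genes were both upregulated, although neither was called with quantile normalization or with TPM. *LDHA* and *LDHB* encode the 2 subunits of the tetramer that interconverts pyruvate and lactate, the A subunit favouring lactate formation and the B subunit lactate use. *LDHA* (chromosome 11, 18394560 to 18408425) had 169, 174, and 166 FPKM in control replicates 1, 2, and 3 and 193, 208, and 209.9 FPKM in case replicates 1, 2, and 3. All case replicates were above all controls, and replicate 2 was among the high ones. This gave a log2 fold change of 0.34 (SE 0.07, 95% CI 0.18 to 0.50, adjusted p = 0.0227), a 1.26-fold rise. *LDHB* (chromosome 12, 21635342 to 21757857) had 303, 290.0, and 273 FPKM in control replicates 1, 2, and 3 and 332, 359, and 398 FPKM in case replicates 1, 2, and 3. The case replicates were again all above the controls. Its log2 fold change was 0.40 (SE 0.09, 95% CI 0.20 to 0.61, adjusted p = 0.0263), a 1.32-fold rise. Of the annotated exons of *LDHB*, 997 bases are shared with an unnamed protein-coding gene on the same strand. The identifier of that gene had no row in the deposited values. The ratio of *LDHA* to *LDHB* was 0.589 ± 0.0282 in the control and 0.562 ± 0.0304 in the case group (SD, n = 3), with overlap (two-sided exact permutation p = 0.4, adjusted over 9 ratios 0.72). The smallest p that this design allows is 0.1, so that no difference of the ratio could have passed the threshold.

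**Figure D2:**
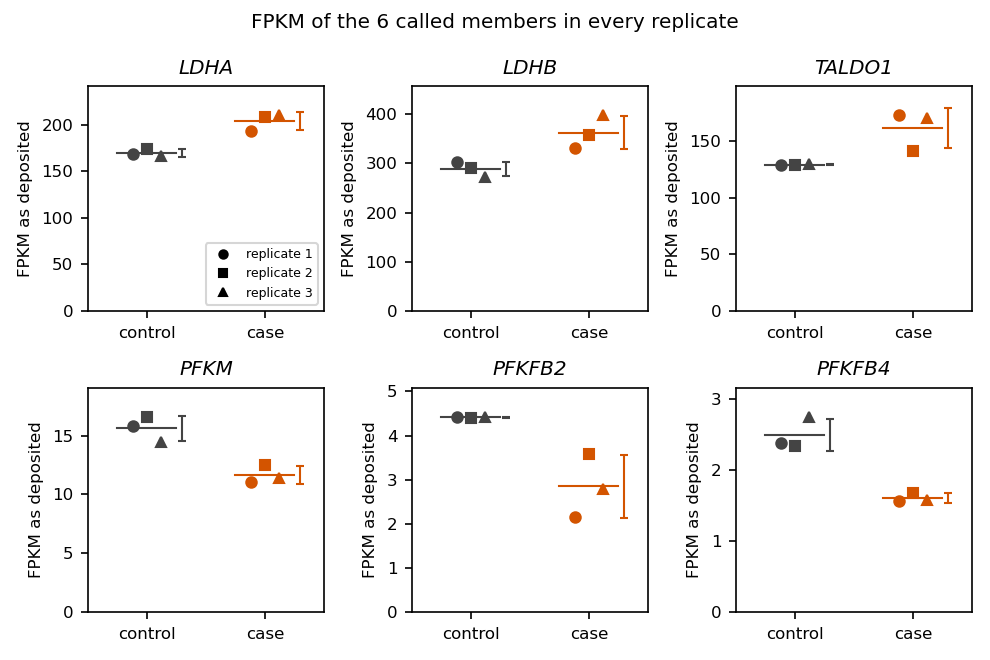
FPKM as deposited of the 6 DE genes in each replicate (circle, square, and triangle for replicates 1, 2, and 3), with the group mean as a line and the SD as a bar (n = 3). The groups do not overlap in any panel, and case replicate 2 lies nearest to the controls for *TALDO1* (141 FPKM), *PFKM* (12.5 FPKM), *PFKFB2* (3.59 FPKM), and *PFKFB4* (1.68 FPKM).

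The promoter stretches of the lactate dehydrogenases are shown because both genes rose and their stretches differ in these letters. The stretch of *LDHA*, on the plus strand at chr11:18394313-18394562, had 5 matches to ACGTG, of which 4 came from 2 copies of CACGTG, since that palindrome holds ACGTG on both strands. The stretch of *LDHB*, on the minus strand at chr12:21657843-21658092, had no match to either core. A second *LDHA* start had 1 match to GCGTG.
LDHA: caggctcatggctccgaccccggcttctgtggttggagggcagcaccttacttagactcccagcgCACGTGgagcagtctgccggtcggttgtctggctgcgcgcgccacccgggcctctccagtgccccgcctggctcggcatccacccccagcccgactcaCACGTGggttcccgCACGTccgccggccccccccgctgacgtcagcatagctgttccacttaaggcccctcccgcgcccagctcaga
LDHB: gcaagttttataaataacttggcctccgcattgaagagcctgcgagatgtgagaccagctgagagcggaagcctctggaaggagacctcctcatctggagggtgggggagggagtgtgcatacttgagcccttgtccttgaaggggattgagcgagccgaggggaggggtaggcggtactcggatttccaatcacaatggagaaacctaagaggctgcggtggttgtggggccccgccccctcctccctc
RefSeq windows were at hand for 32 of the 35 genes, 61 windows in all, and not for *PFKFB2*, *SLC16A1*, and *SLC2A3*. ACGTG was found in 34.4% of these windows and in 18.5% of all 35116 windows of the same length, GCGTG in 34.4% and 32.2%, and CACGTG in 13.1% and 6.34%. Of the DE genes, *TALDO1* had no match to either core and *PFKM* had ACGTG in 1 of its 7 windows. Such matches are letters in a window, and windows of one gene overlap each other.

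The lactate carriers were not DE. *SLC16A1* and *SLC16A3* encode MCT1 and MCT4, which carry lactate with a proton across the plasma membrane, and had log2 fold changes of 0.12 (adjusted p = 0.445) and 0.01 (adjusted p = 0.958). *BSG*, the chaperone that brings both carriers to the membrane, had 364 ± 13.9 FPKM in the control and 438 ± 59.3 FPKM in the case group (SD, n = 3), without overlap, and a log2 fold change of 0.34 (SE 0.12, adjusted p = 0.1). Of the 5 lactate genes, 2 were upregulated (40.0%, against 7.34% of all tested genes) and 0 downregulated. At an unadjusted p under 0.05, 3 were higher and 0 lower, against 33.1% of all tested genes in either direction. Voom called 3 higher and 0 lower, against 9.57% and 11.1% of all tested genes. With quantile normalization and with TPM, 0 of the 5 were called, and 0 and 1 had an unadjusted p under 0.05. There *LDHA* was at 0.12 and 0.14 (adjusted p = 0.319 and 0.168) and *LDHB* at 0.14 and 0.20 (adjusted p = 0.281 and 0.106). TPM moved the median of all tested genes to -0.19. Relative to that median *LDHA* was at 0.33 and *LDHB* at 0.40 with TPM, against 0.34 and 0.41 with the median-of-ratios scaling. With quantile normalization the relative values were 0.12 and 0.15. All 5 lactate genes together held 0.303%, 0.297%, and 0.291% of the FPKM sum in control replicates 1, 2, and 3 and 0.332%, 0.323%, and 0.333% in case replicates 1, 2, and 3, so that the groups did not overlap. All 35 genes together held 2.06% ± 0.0676 (control) and 2.01% ± 0.0923 (case), which overlapped.

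In the pentose phosphate branch, 1 of 6 genes was upregulated (16.7%, against 7.34% of all tested genes). *TALDO1* (chromosome 11, 747415 to 765012) encodes transaldolase, which moves 3-carbon units in the non-oxidative part of the branch. It had 129, 129, and 130.0 FPKM in control replicates 1, 2, and 3 and 173, 141, and 171 FPKM in case replicates 1, 2, and 3. The controls were nearly equal, and case replicate 2 lay between them and the other case replicates. In the limma fit the log2 fold change was 0.39 (SE 0.11, 95% CI 0.15 to 0.64, adjusted p = 0.0481), close to the threshold. It was called in 10 of the 27 alternative settings, and fell to 0.16 with quantile normalization (adjusted p = 0.0967) and to 0.19 with TPM (adjusted p = 0.099). Relative to the median of all tested genes, *TALDO1* was at 0.39 with TPM and with the median-of-ratios scaling, and at 0.17 with quantile normalization. *TKT*, the transketolase that works beside it, had 136 ± 3.09 and 132 ± 11.5 FPKM (SD, n = 3) and a log2 fold change of 0.03 (adjusted p = 0.834). *PGD*, which makes NADPH in the oxidative part, was at 0.19 (adjusted p = 0.151), and the lactonase *PGLS* at 0.29 (adjusted p = 0.167). The epimerase *RPE* was at 0.29 (adjusted p = 0.0902) with no overlap of the scaled values, and the isomerase *RPIA* at -0.08 (adjusted p = 0.574). *PGM1* and *PGM2*, the phosphoglucomutases that link glycogen and pentose sugars to glycolysis, were at -0.08 and -0.04 (adjusted p = 0.579 and 0.83).

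*PKM* itself, the gene of the enzyme that TEPP-46 binds and not one of the 35, had 930, 923, and 891 FPKM in control replicates 1, 2, and 3 and 934, 793, and 811 FPKM in case replicates 1, 2, and 3. The table has 1 row for the gene and does not divide the M1 and M2 isoforms. Case replicate 1 was the highest library and the other case replicates the lowest. The log2 fold change was -0.04 (SE 0.10, 95% CI -0.27 to 0.20, adjusted p = 0.821). The call depended on the scaling. *PKM* was lower in the case group with quantile normalization (-0.40, adjusted p = 0.0156) and with TPM (-0.24, adjusted p = 0.0432). It was at 0.14 with the gene length correction. TPM moved the median of all tested genes to -0.19. Relative to that median *PKM* was at -0.044 with TPM, against -0.037 with the median-of-ratios scaling and -0.40 with quantile normalization. The cause of the TPM call was not tested.

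Genes at a high level tended to have positive values, in the list and in the transcriptome. Across the 33 genes the Spearman correlation of log2 fold change with mean FPKM was 0.63, and across all 13599 tested genes it was 0.22, where genes are not independent replicates and share the same 6 libraries. Of the 13 genes with a mean of at least 100 FPKM, 12 had a positive log2 fold change, with a median of 0.19, and *PFKP* was the exception, but with quantile normalization *ALDOA*, *TPI1*, *GAPDH*, *PGK1*, *PGAM1*, *ENO1*, *PGD*, and *TKT* turned negative too. Of the 20 genes below that level, 7 were positive, with a median of -0.06. The abundant genes of the whole transcriptome moved in the same way, since 383 of the 458 tested genes with at least 100 FPKM were positive with a median of 0.24. The upregulated genes *LDHA*, *LDHB*, and *TALDO1*, between 0.34 and 0.40, and *ALDOA*, *GAPDH*, *PGK1*, and *BSG*, between 0.19 and 0.34, all belong to these abundant genes and had the same sign as most of them. The correlation of the log2 fold change with gene length was -0.26 across the 33 genes and -0.36 across all. The part of level in the changes was not tested.

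**Figure D3:**
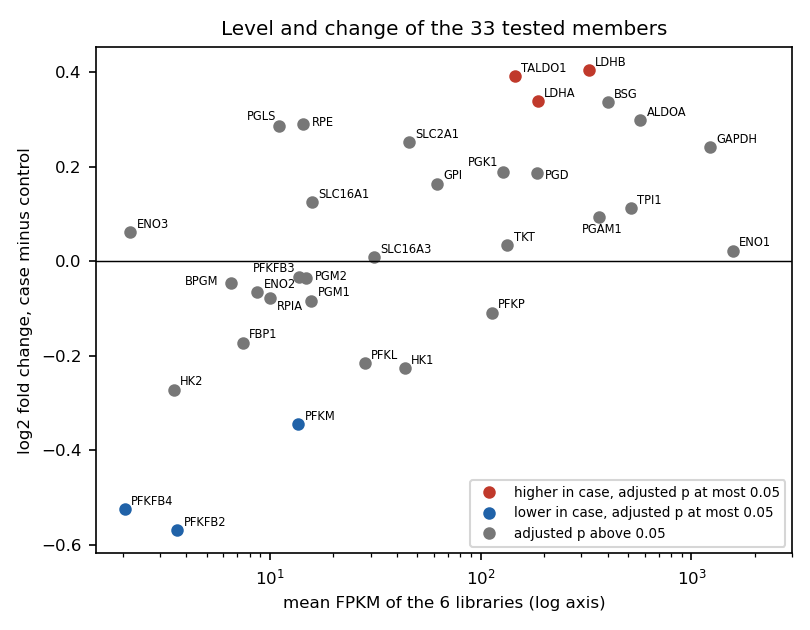
Mean FPKM of the 6 libraries (log axis) against the log2 fold change (case minus control) for the 33 tested genes. The 3 downregulated genes lie at low level (mean under 14 FPKM) and the 3 upregulated ones above 100 FPKM, and of the 13 genes at or above 100 FPKM only *PFKP* lies below 0 with the median-of-ratios scaling used here, whereas more do with quantile normalization.

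The case replicates differed in how far the genes moved. As a difference from the mean of the controls, the median of the 33 genes was 0.16 in case replicate 1, 0.00146 in case replicate 2, and 0.07 in case replicate 3 on the log2 scale, and 22, 17, and 19 of the 33 were above the control mean. *LDHA* was 0.31, 0.33, and 0.38 above it and *PFKFB4* 0.51, 0.51, and 0.56 below it in case replicates 1, 2, and 3, so that for both the 3 replicates moved alike. For *TALDO1* the differences were 0.55, 0.16, and 0.47, and for *PFKFB2* -0.88, -0.26, and -0.57. In both genes case replicate 2 moved least.

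**Figure D4:**
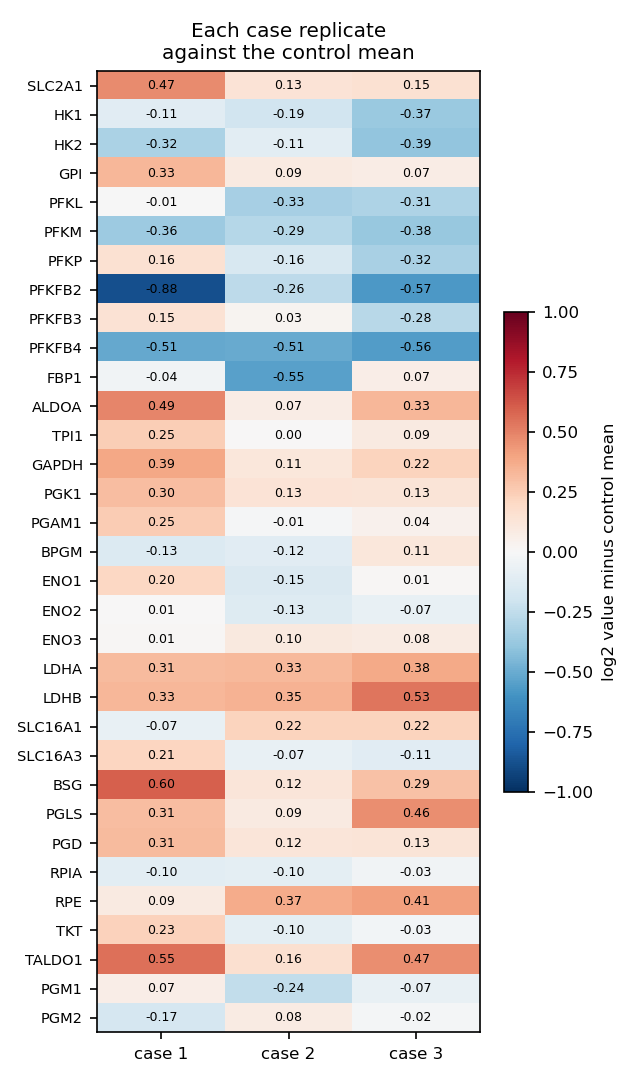
Log2 value of each case replicate minus the mean of the 3 control replicates, for the 33 tested genes (rows, ordered by role), with red above and blue below the control mean. *LDHA*, *PFKM*, and *PFKFB4* have one sign and similar size in all 3 columns. *LDHB* has one sign but is largest in case replicate 3 (0.33, 0.35, 0.53). *FBP1* (-0.04, -0.55, 0.07) and *ENO1* (0.20, -0.15, 0.01) change sign between replicates.

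The calls depended on which library was left out. Without case replicate 2, 25.7% of the tested genes were DE, and the DE genes of the list were *LDHA*, *LDHB*, *TALDO1*, *ALDOA*, *BSG*, and *GAPDH* upwards and *PFKM*, *PFKFB2*, *PFKFB4*, and *HK2* downwards. Without case replicate 1, 16.8% of the tested genes were DE, among them *LDHA*, *LDHB*, and *RPE* upwards and *PFKM*, *PFKFB4*, *HK1*, and *PFKL* downwards. Without case replicate 3 the share fell to 1.41%, and without control replicates 1, 2, and 3 to 0.771%, 0.507%, and 0.64%, and in these 4 fits 0 of the 33 genes were DE in limma. At an unadjusted p under 0.05 there were 9 of the 33 without case replicate 3 and 7, 6, and 7 without control replicates 1, 2, and 3. No share of all tested genes at that threshold is given here for these fits. In the same 4 settings voom called 1, 3, 2, and 2 of the 33 genes. Of all tested genes it called 901 of 13593, 1240 of 13610, 1029 of 13609, and 1164 of 13591. Without case replicate 2 the log2 fold changes were 0.35 for *LDHA*, 0.43 for *LDHB*, 0.51 for *TALDO1*, -0.37 for *PFKM*, -0.72 for *PFKFB2*, and -0.53 for *PFKFB4*, each at least as large as with it. Those of *ALDOA*, *BSG*, *GAPDH*, and *HK2* were 0.41, 0.44, 0.31, and -0.35. Over 27 alternative settings the log2 fold changes stayed between 0.12 and 0.42 for *LDHA* and between -0.72 and -0.37 for *PFKFB4*, and the 6 DE genes kept their direction in all 27. Of these 27, *LDHA* was called in 16, *LDHB* in 15, *TALDO1* in 10, *PFKM* in 16, *PFKFB2* in 17, and *PFKFB4* in 18.

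The scaling of the libraries changed the calls as well. With quantile normalization, where 6.42% of the tested genes were upregulated and 6.58% downregulated, 0 of the list were upregulated (2 at an unadjusted p under 0.05) and 5 were downregulated (*HK1*, *PFKL*, *PFKM*, *PFKFB2*, and *PFKFB4*). With the values turned into TPM, which shifted the median of all tested genes to -0.19, 2.82% were upregulated and 17.6% downregulated, and of the list 0 were upregulated (2 at an unadjusted p under 0.05) and 7 downregulated, *HK2* and *PGM1* in addition. *PFKM*, *PFKFB2*, and *PFKFB4* were thus downregulated under each of these scalings, and *LDHA*, *LDHB*, and *TALDO1* stayed positive without passing the threshold. The positive values of *ALDOA* and *GAPDH* turned to -0.09 and -0.06 with quantile normalization. A test of the recovered whole reads (voom) called 20.7% of all tested genes, 9.57% upwards and 11.1% downwards, and 7 of the list, which were the same 6 genes and *BSG* (adjusted p = 0.0458).

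**Figure D5:**
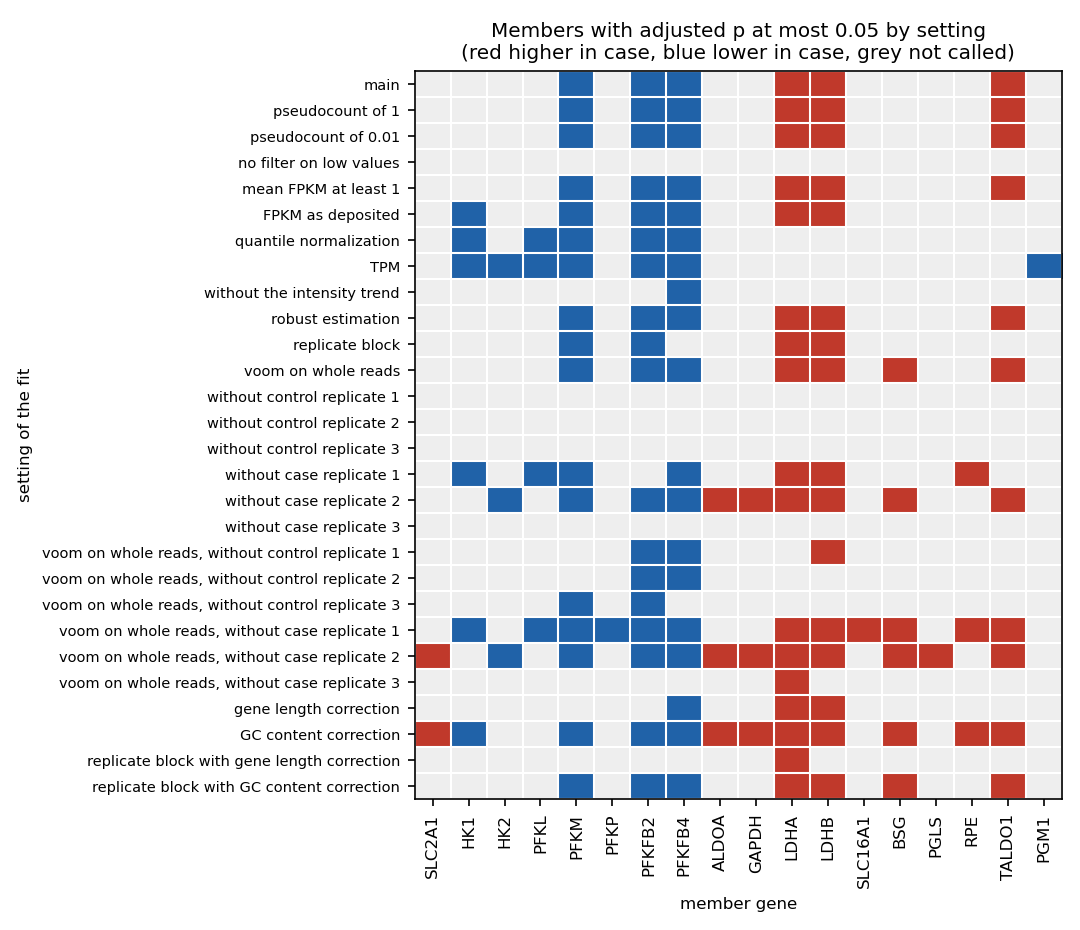
Genes of the list that passed an adjusted p of 0.05 in any of the settings (columns) under each setting of the fit (rows), red when higher and blue when lower in the case group, and grey when not called. *PFKFB4*, *PFKM*, *PFKFB2*, *LDHA*, and *LDHB* are coloured in most rows, and 5 rows hold no called gene (the fit with no filter on low values and the 4 limma fits without a control replicate or without case replicate 3).

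Other genes of the same pathways gave a comparable picture. Of 43 listed genes outside the 35, 37 had a row and 20 were tested, of which 1 was upregulated and 2 were downregulated (15.0%, against 13.2% of all tested genes). *PCK2*, the mitochondrial enzyme that makes phosphoenolpyruvate, had 29.1, 29.4, and 24.8 FPKM in control replicates 1, 2, and 3 and 41.1, 37.2, and 40.3 FPKM in case replicates 1, 2, and 3. The groups were far apart, with a log2 fold change of 0.59 (SE 0.10, adjusted p = 0.0159). *H6PD*, which starts a pentose phosphate route inside the endoplasmic reticulum, had 5.75, 5.82, and 5.66 FPKM in control replicates 1, 2, and 3 and 3.66, 3.53, and 3.00 FPKM in case replicates 1, 2, and 3. The controls were tight (SD 0.0816 FPKM), and the case replicates were more spread (SD 0.352 FPKM) but all lower. The log2 fold change of -0.67 (SE 0.11, adjusted p = 0.0143) was larger than that of any gene in the list of 35. *SLC37A4*, which carries glucose 6-phosphate into the endoplasmic reticulum where *H6PD* acts, had 8.32 ± 0.363 and 6.24 ± 0.209 FPKM (SD, n = 3) and a log2 fold change of -0.33 (SE 0.08, adjusted p = 0.0415). The kidney glucose transporter *SLC5A2* had a mean of 0.0307 FPKM and *SLC5A1* of 0.00188 FPKM, both under the minimum. Without case replicate 3 or any 1 of the control replicates, limma called 0 of the 20 genes, against 0.507% to 1.41% of all tested genes. In these fits 6 or 7 of the 20 had an unadjusted p under 0.05, with no share of all tested genes given here. Voom called 2 or 3 of the 20 in these settings, and 901 to 1240 of all tested genes. Without case replicate 2, limma called 7 of the 20, against 25.7% of all tested genes.

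Hypoxia-responsive genes outside glycolysis were counted as a further list, because *SLC2A1*, *PFKFB4*, and *LDHA* belong to the same textbook programme. Of 22 such genes, 19 were tested, 4 were upregulated (21.1%, against 7.34% of all tested genes) and 0 downregulated. At an unadjusted p under 0.05, 6 were higher and 0 lower, against 33.1% of all tested genes in either direction. Voom called 5 higher and 0 lower, against 9.57% and 11.1% of all tested genes. The groups did not overlap for 5 higher and 2 lower genes, against 19.5% and 20.4% of all tested genes. The median log2 fold change of the 19 was -0.05. *ANGPTL4*, a secreted inhibitor of lipoprotein lipase, had 4.11, 3.48, and 3.73 FPKM in control replicates 1, 2, and 3 and 8.75, 6.58, and 8.47 FPKM in case replicates 1, 2, and 3. It was the gene of the list that differed most, with a log2 fold change of 1.12 (SE 0.14, adjusted p = 0.00848). *P4HA1*, a prolyl hydroxylase of collagen, followed with 0.56 (SE 0.08, adjusted p = 0.0124), *BNIP3*, a mitophagy receptor, with 0.42 (SE 0.08, adjusted p = 0.0201), and *VEGFA*, the vascular growth factor, with 0.33 (SE 0.09, adjusted p = 0.048). The kinase *PDK1* was at 0.00725 (adjusted p = 0.984), and *EGLN1*, the oxygen sensor, at -0.05 (adjusted p = 0.744). *CA9*, among the most responsive of such genes, had a mean of 0.0167 FPKM and was not tested. With 1 replicate left out, limma called 0 genes of this list (without control replicate 2, with 0.507% of all tested genes) to 3 genes. The 3 were reached without case replicate 1 or 2, where 16.8% and 25.7% of all tested genes were DE. Without control replicate 2, 4 had an unadjusted p under 0.05, with no share of all tested genes given here.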

How the data were processed

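The authors sequenced RNA of 3 control and 3 case replicates, aligned the reads to GRCh38.p13 with HISAT2 2.1.0 and counted them with HTSeq 0.6.0. The deposited values are FPKM per gene, with 1 column per library. Here they were divided by a median-of-ratios factor (0.944 to 1.04), a pseudocount of 0.1 was added, and log2 values of the 13599 genes with a mean of at least 0.5 FPKM were tested with limma 3.58.1 (R 4.3.3, intensity trend, Benjamini-Hochberg over all tested genes, threshold 0.05). Fold changes are on this scale and understate low genes. Whole reads were recovered for 100% of the 27922 genes above 0, since the FPKM values are multiples of 1 read. The implied gene length was whole within 0.02 bases for 100% of 11974 genes with at least 50 reads. These reads were tested with voom as an alternative to the FPKM fit. Intervals cover the spread between replicates. The reads carry no molecular identifiers and may include copies of one molecule. Ratios were tested with exact permutation (SciPy 1.17.1). Symbols matched 29063 identifiers. Coordinates are from a GRCh38 annotation that may differ from that of the authors, and promoters are from RefSeq. The scripts were tested on simulated data. The members and lists were chosen with earlier results of these data known. Named genes were all members, with values per replicate for the DE members and for *SLC2A1*, *HK2*, *PFKFB3*, *FBP1*, *GAPDH*, *LDHA*, and *PKM*, and, by name, the DE genes of the other lists. The values per replicate of *ENO1*, *PCK2*, *H6PD*, and *ANGPTL4* and the mention of *PDK1*, *EGLN1*, *CA9*, *SLC5A1*, and *SLC5A2* were additions made once the values had been seen. The value of 1 marker gene is not reported here.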

Additional observations from a re-analysis of the deposited data

How the results depend on the processing

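The 6 DE genes kept their direction in all 27 alternatives, but the number of calls moved. The number of DE genes among all tested genes was 524 with no filter on low values, 2770 with TPM, 852 without the intensity trend, 2814 with voom on whole reads, and 3214 with a GC content correction, and it ranged from 69 (without control replicate 2) to 4328 (voom without case replicate 2) when 1 replicate was left out. The upregulated genes of the list numbered 0 with no filter, with quantile normalization, with TPM, and without the trend, and 8 with the GC content correction. The downregulated ones numbered 0 with no filter, 5 with quantile normalization, 7 with TPM, 1 without the trend, and 1 (*PFKFB4*) with a gene length correction, where *TALDO1* (0.31, adjusted p = 0.0559) was not called either. With 1 replicate left out, upregulated genes ranged from 0 to 8, downregulated ones from 0 to 6, and in limma DE genes among the other pathway genes ranged from 0 to 7 and those of the hypoxia list from 0 to 3. The hypoxia list had 2 DE genes with TPM, and the other pathway genes had 6 with voom. The median of the list minus that of all tested genes was -0.077 with quantile normalization. The corrections for gene length and GC content and the voom fits with a replicate left out were chosen after seeing the data.

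Unscaled FPKM moved the median of all tested genes to -0.08 and TPM moved it to -0.19, and genes with small changes turned sign. With quantile normalization *ALDOA* was at -0.089, *TPI1* at -0.22, *GAPDH* at -0.056, *PGK1* at -0.0084, *PGAM1* at -0.17, *ENO1* at -0.19, *SLC16A3* at -0.10, *PGD* at -0.033, and *TKT* at -0.18. With TPM *GPI* was at -0.035, *TPI1* at -0.087, *PGK1* at -0.011, *PGAM1* at -0.11, *ENO1* at -0.18, *ENO3* at -0.13, *SLC16A1* at -0.074, *SLC16A3* at -0.19, *PGD* at -0.013, and *TKT* at -0.17. With unscaled FPKM *ENO1* was at -0.054, *ENO3* at -0.011, *SLC16A3* at -0.067, and *TKT* at -0.043. With the gene length correction *PFKFB3* was at 0.0070, *ENO1* at -0.018, and *PKM* at 0.14, and with the GC content correction *ENO1* was at -0.015, each the same with the replicate block. With 1 replicate left out, *PFKFB3* ranged from -0.12 to 0.091, *ENO1* from -0.064 to 0.11, *SLC16A3* from -0.088 to 0.073, *TKT* from -0.059 to 0.10, *PKM* from -0.13 to 0.030, *PFKP* from -0.24 to 0.00064, *FBP1* from -0.29 to 0.015, *BPGM* from -0.12 to 0.0031, and *PGM2* from -0.093 to 0.036. The log2 ratio changes ranged from -0.12 to 0.027 for *HK2*/*HK1*, from -0.55 to 0.74 for *ALDOC*/*ALDOA*, and from -0.92 to 0.087 for *SLC2A3*/*SLC2A1*, the latter both resting on few reads. The cause of each was not tested.

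The labels do not say whether equal replicate numbers pair the samples. The deviations of same-numbered samples correlated at 0.06, 0.10, and -0.05, which with 3 samples per group cannot exclude pairing. With the replicate number as a block there were 1610 DE genes, and of the list *LDHA*, *LDHB*, *PFKFB2*, and *PFKM* remained, and *TALDO1* (adjusted p = 0.0513) and *PFKFB4* were not called. With the block and the gene length correction there were 858 DE genes, 1 upregulated and 0 downregulated gene of the list.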
